A study of Oryza sativa with 8 samples.

Results

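The accessible chromatin of 2 rice cultivars was compared after the same heat treatment, using the ATAC-seq peaks of heat-stressed (HS) 93-11, an indica rice, and of heat-stressed Nipponbare (Nip), a japonica rice. All peaks of the 4 HS libraries on chromosomes 1 to 12 were taken, which gave 24940 and 22684 peaks in 93-11 HS replicates 1 and 2, and 36279 and 36743 peaks in Nip HS replicates 1 and 2. These 120646 peaks were part of 246695 peaks in the 8 libraries of the series. The HS groups were the aerial parts of 3-week-old seedlings kept at 45 °C for 36 h, at a humidity above 80% and a light intensity of 60 to 80 μmol m-2 s-1. The other groups were 93-11 Normal and Nip Normal seedlings of the same age, with 2 libraries each and without the heat treatment. Growth light was stated as 800 μmol m-2 s-1, and light and humidity of the Normal seedlings in those hours were not stated, so the 3 parts of the treatment cannot be told apart. Each subspecies was thus represented by 1 cultivar, and the replicates were stated to be biological replicates.

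ATAC-seq reads out accessible DNA, because the Tn5 transposase cuts and tags DNA most readily where nucleosomes are absent or loose. In plants such sites lie mostly at promoters and other regulatory DNA close to genes. Rice chromosomes carry most of their genes along the arms, while the DNA around the centromeres is rich in repeats and packed as heterochromatin. The density of accessible sites along a chromosome therefore follows euchromatin and heterochromatin on a large scale. The 2 cultivars belong to subspecies with different genome assemblies, and their lists share no coordinates, so only the number, width, spacing and position of peaks along a chromosome were compared. No gene was assigned to a peak and no sequence is shown, since the lists were used without a gene annotation.

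Read depth is not recorded in the lists, and the HS libraries of the 2 cultivars differed in 3 technical values. The background rate, which is the number of overlapping fragments expected at a base and was recovered from the deposited values, was 4.41 and 4.66 in 93-11 HS, against 6.79 and 6.85 in Nip HS. It was 6.11 and 6.67 in 93-11 Normal, against 5.31 and 5.21 in Nip Normal, so the order of the cultivars was the opposite there. The shortest peak was 126 and 127 bp in 93-11 HS, against 163 bp in both Nip HS lists, and the shortest gap was 129 and 130 bp in 93-11 HS, against 166 bp in both Nip HS lists. MACS2, the caller used, by default takes both limits from the length of the fragments or reads. The share of peaks that overlapped a peak of the other replicate by at least 1 bp was 53.4% and 58.6% in 93-11 HS, against 84.1% and 83.1% in Nip HS. Background rate, shortest width and replicate share thus separated the HS libraries of the 2 cultivars without overlap. The widths were also computed under common limits, and the part of the background rate in the results that follow was not tested.

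With all listed peaks counted, heat-stressed 93-11 had fewer and narrower peaks than heat-stressed Nip, and the peaks were farther apart. The peak density was 64.3 and 58.5 peaks per Mb in 93-11 HS, against 97.3 and 98.5 peaks per Mb in Nip HS. Peaks covered 1.80% and 1.67% of the chromosomes in 93-11 HS, against 4.60% and 4.64% in Nip HS. Both 93-11 libraries lay below both Nip libraries in each measure, and the gap between the cultivars was many times the difference between replicates. The mean density was 61.4 ± 4.11 peaks per Mb in 93-11 HS and 97.9 ± 0.880 peaks per Mb in Nip HS (SD, n = 2 each), a log2 ratio of -0.67. The mean covered share was 1.74% ± 0.0884 in 93-11 HS and 4.62% ± 0.0254 in Nip HS (SD, n = 2 each), a log2 ratio of -1.41. An exact two-sided permutation test of 2 against 2 libraries cannot give a p below 0.333, and it gave p = 0.333 for both, and also for each other value per library that did not overlap between the cultivars. The direction was the same with each library left out.

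**Figure D1:**
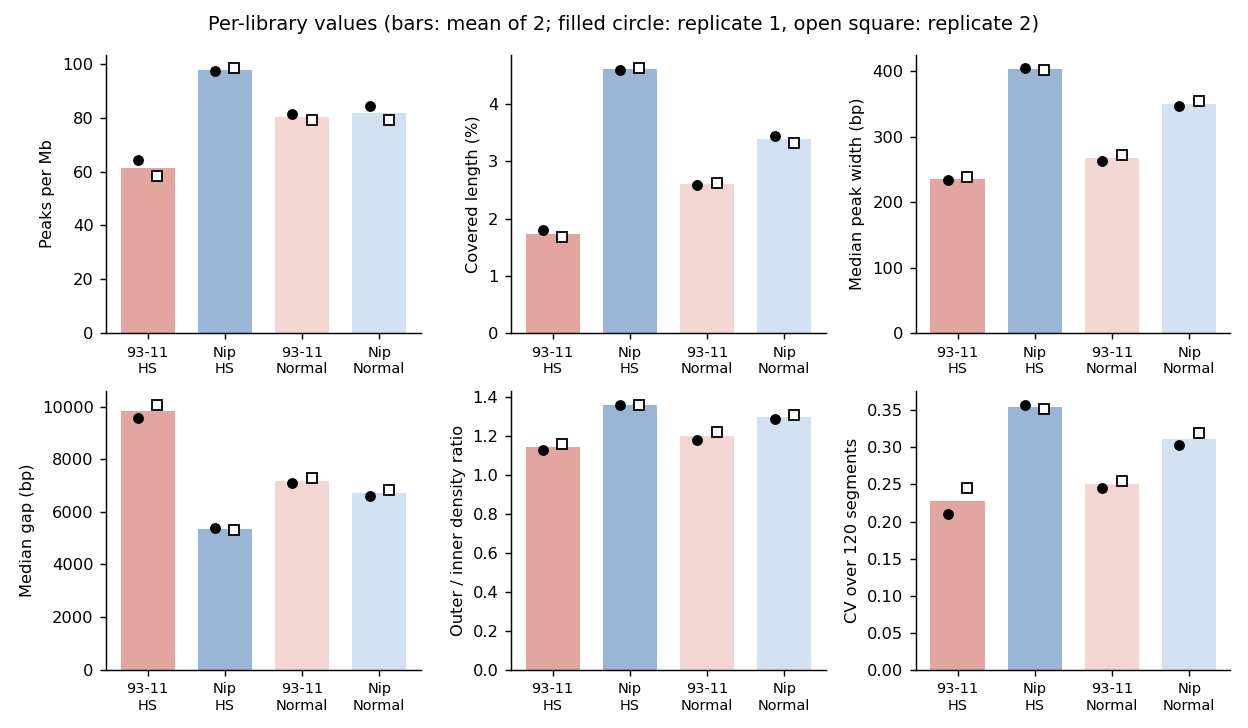
Values per library for peak density, covered share of chromosome length, median peak width, median gap, the ratio of peak density in the outer to that in the inner parts of the chromosomes, and the coefficient of variation of peak density over 120 chromosome segments. Bars are means of 2 libraries, filled circles are replicate 1 and open squares replicate 2. Under HS the 93-11 libraries lie below the Nip libraries in all panels except the median gap, where they lie above.

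The narrower peaks of 93-11 HS were seen across the whole range of widths. The median width was 233 and 239 bp in 93-11 HS, against 405 and 402 bp in Nip HS, a log2 ratio of -0.77. Peaks under 200 bp made up 38.0% and 36.5% of the 93-11 HS peaks, against 9.36% and 9.47% of the Nip HS peaks. At the other end, peaks of 1 kb or more numbered 95 and 104 in 93-11 HS, against 1825 and 1806 in Nip HS. Broad sites were thus rare in 93-11 HS. They held 1.60% and 1.86% of the covered length in 93-11 HS, against 13.3% and 13.1% in Nip HS. Of the 4 width classes, these broad sites were the one with the largest ratio between cultivars, at 0.257 per Mb in 93-11 HS and 4.87 per Mb in Nip HS. The class from 200 bp to under 500 bp took a like share of the peaks in all 4 lists, at 53.1% and 54.3% in 93-11 HS, against 54.5% and 54.8% in Nip HS.

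**Figure D2:**
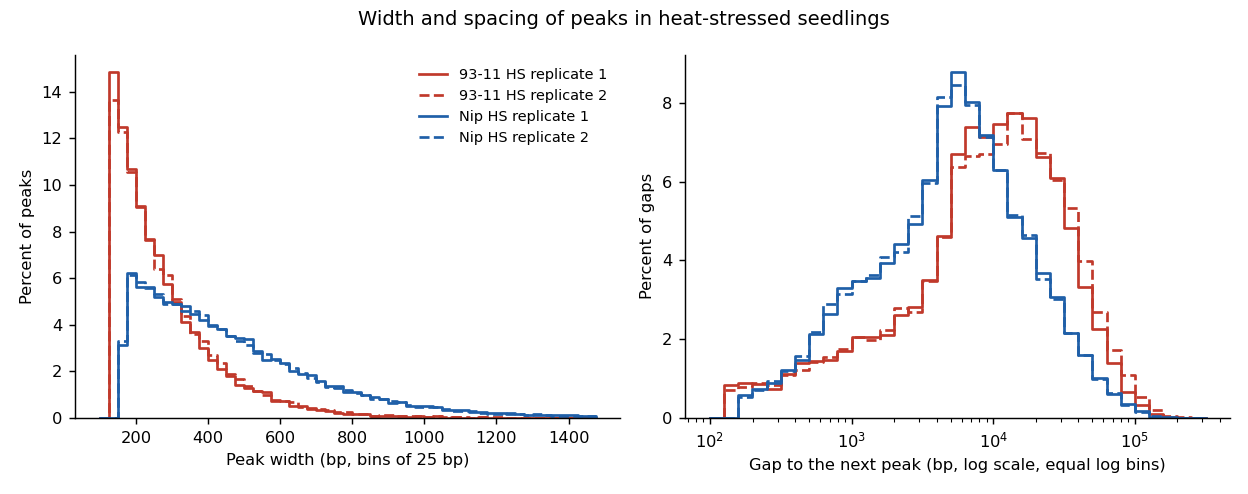
Left, percent of peaks per 25 bp of width. Right, percent of gaps between neighbouring peaks per equal step of the log scale. Solid lines are replicate 1 and dashed lines replicate 2, with 93-11 HS in red and Nip HS in blue. The 93-11 HS widths start at 126 and 127 bp and fall off steeply, the Nip HS widths start at 163 bp and reach farther, and the 93-11 HS gaps are shifted to longer distances.

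The shortest width of each list sets a lower limit on its median. With that width subtracted, the median was 107 and 112 bp in 93-11 HS, against 242 and 239 bp in Nip HS. With the Nip limits applied to all 4 lists, that is gaps of up to 166 bp merged and peaks under 163 bp dropped, the median width was 273 and 278 bp in 93-11 HS, against 405 and 402 bp in Nip HS. The log2 ratio of the widths was then -0.55, and that of the peak densities was -1.02, at 50.1 and 46.5 peaks per Mb in 93-11 HS, against 97.3 and 98.5 peaks per Mb in Nip HS. The cultivars thus stayed apart in width under common limits. As the limits were those of Nip HS, they removed or merged almost only 93-11 HS peaks. They left 19410 and 18029 peaks in 93-11 HS, against 36275 and 36740 in Nip HS. The density ratio could therefore only widen, and it is no check of the difference in number.

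Peaks of like height over the background were also narrower in 93-11 HS in each of the 5 classes of fold. Counted in multiples of the shortest width of their list, they were narrower in the 3 lower classes and close to those of Nip HS in the 2 highest. At 3 to 4 times the background, the median was 1.59 and 1.56 multiples in 93-11 HS, against 1.85 and 1.82 in Nip HS, and at 4 to 6 times it was 2.08 and 2.09, against 2.34 and 2.33. Among peaks at 6 to 10 times the background, the median width was 374 and 383 bp in 93-11 HS, against 508 and 510 bp in Nip HS. As a multiple of the shortest width of its list, this was 2.97 and 3.02 in 93-11 HS, against 3.12 and 3.13 in Nip HS. Among peaks at 10 times the background or more, the median width was 518 and 514 bp in 93-11 HS, against 657 and 646 bp in Nip HS. Here too the widths differed, while the corresponding multiples were close, at 4.11 and 4.05 in 93-11 HS, against 4.03 and 3.96 in Nip HS. The lists differed in how many such peaks they held, with 1.66 and 1.64 per Mb at 10 times the background or more in 93-11 HS, against 14.3 and 14.6 per Mb in Nip HS. Peaks this high were thus far fewer in 93-11 HS. Between 3 and 4 times the background the order was the opposite, with 28.9 and 27.2 peaks per Mb in 93-11 HS, against 18.3 and 18.7 per Mb in Nip HS. Under 3 times the background, 4.98 and 2.53 peaks per Mb were listed in 93-11 HS, against 13.3 and 13.5 per Mb in Nip HS. The lowest listed value was 3.06 and 3.10 in 93-11 HS, against 2.67 in both Nip HS lists. At a lower background rate a given value also stands for a higher fold. The class under 3 times the background was thus cut at unlike folds, and the part of this in its counts was not tested. Of the 5 classes, that from 3 to 4 times held the most 93-11 HS peaks. The median peak stood at 3.88 and 3.96 times the background in 93-11 HS, against 5.19 and 5.18 times in Nip HS.

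Neighbouring peaks were farther apart in 93-11 HS, with a median gap of 9560 and 10079 bp, against 5375 and 5320 bp in Nip HS. The log2 ratio of the gaps was 0.88. Gaps over 50 kb numbered 1213 and 1443 in 93-11 HS, against 825 and 807 in Nip HS. Long gaps were thus more frequent in 93-11 HS. Peaks with a neighbour less than 1 kb away made up 19.9% and 19.6% of the 93-11 HS peaks, against 24.4% and 24.8% of the Nip HS peaks. Evenly random placement at the same density would give 10.8% and 9.83% in 93-11 HS, against 15.6% and 15.8% in Nip HS, so close pairs were more frequent than that in all 4 lists. When each list was reduced to its 10000 strongest peaks, the order turned, and 11.3% and 10.8% had a close neighbour in 93-11 HS, against 6.03% and 6.07% in Nip HS. At that equal number of peaks the median gap no longer separated the cultivars, with 19141 and 18541.5 bp in 93-11 HS, against 18838.5 and 18561 bp in Nip HS.

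On the scale of 100 kb, few stretches were without a peak in either cultivar. Of 3872 windows, 31 and 49 held no peak in 93-11 HS, and of 3724 windows, 29 and 23 held none in Nip HS. The shares were 0.801% and 1.27% in 93-11 HS, against 0.779% and 0.618% in Nip HS, so the groups did not overlap but nearly touched, and the 93-11 replicates differed by more than the means of the cultivars, 1.03% in 93-11 HS and 0.698% in Nip HS. The median window held 6 and 5 peaks in 93-11 HS, against 9 and 9 in Nip HS, and the fullest window held 22 and 22, against 30 and 28. The variance of the window counts divided by their mean was 1.55 and 1.69 in 93-11 HS, against 2.76 and 2.70 in Nip HS. This ratio was thus lower in 93-11 HS, where the mean count was lower too. It was not compared at an equal mean, so it does not show that the counts were more even.

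Single regions show the same scale, each on the assembly of its own cultivar as named in the lists and counted from 1. The broadest site present in both 93-11 HS libraries lay on chromosome 3 from 36826928 to 36829159 and was 2232 and 2172 bp wide. The broadest in both Nip HS libraries lay on chromosome 3 from 9273585 to 9276481 and was 2877 and 2897 bp wide. The next broadest 93-11 site, on chromosome 1 from 8670259 to 8671839, was 1579 and 1562 bp wide, whereas the third broadest Nip site, on chromosome 4 from 34721805 to 34724162, still was 2358 and 2337 bp wide. Sites of this breadth were thus single in 93-11 HS and several in Nip HS. The longest stretch with no peak in either 93-11 HS library measured 197 kb, on chromosome 8 from 12691374 to 12888490. It held 0 and 1 peaks in 93-11 Normal. The longest such stretch in Nip HS measured 188 kb, on chromosome 4 from 9541642 to 9729619, and held 2 and 6 peaks in Nip Normal. Both stretches lay in the inner part of their chromosome. The fullest 100 kb window of 93-11, on chromosome 1 from 1700001 to 1800000, held 22 and 22 peaks under HS. The fullest of Nip, on chromosome 2 from 30200001 to 30300000, held 30 and 27 peaks under HS. The longest empty stretches were thus of like length in both cultivars, while the fullest windows and broadest sites were larger in Nip.

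The lower density of 93-11 HS was shared by all chromosomes. Both 93-11 HS libraries lay below both Nip HS libraries on 12 of 12 chromosomes, by between 43.1% on chromosome 3 and 30.6% on chromosome 12. Chromosome 3 had 73.0 and 68.6 peaks per Mb in 93-11 HS, against 123.9 and 124.9 peaks per Mb in Nip HS. Chromosome 12 had 53.6 and 47.0 peaks per Mb in 93-11 HS, against 72.2 and 72.7 peaks per Mb in Nip HS. Chromosome 3 was thus the one with the wider distance between the cultivars. Width was lower in 93-11 HS by a nearly constant share, between 42.8% on chromosome 9 and 39.4% on chromosome 12, and the median gap was 75.1% (chromosome 4) to 93.0% (chromosome 10) longer. These differences were smaller under Normal, where only 3 of 12 chromosomes had a lower density in 93-11 without overlap and none had a higher one.

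Along the chromosomes, the heat-stressed 93-11 landscape was flatter than that of Nip when all peaks were counted. Among peaks at 4 or more times the background, the ratio of outer to inner density overlapped between the cultivars. At 6 to 10 times the background, and at 10 times or more, this ratio was higher in 93-11 HS. Each chromosome was cut into 10 segments of equal length, numbered in the direction of the deposited coordinates, and the density in a segment was divided by the mean density of the library. In the pooled segment 4, this relative density was 0.839 and 0.781 in 93-11 HS, against 0.647 and 0.652 in Nip HS. In segment 5 it was 0.839 and 0.812 in 93-11 HS, against 0.657 and 0.665 in Nip HS. In segment 10, at the far end, it was 1.13 and 1.17 in 93-11 HS, against 1.33 and 1.32 in Nip HS. The trough around the middle was thus shallower and the distal rise lower in 93-11 HS. The absolute density was lower in 93-11 HS in all 10 pooled segments, by between 21.6% in segment 4 and 45.5% in segment 10.

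**Figure D3:**
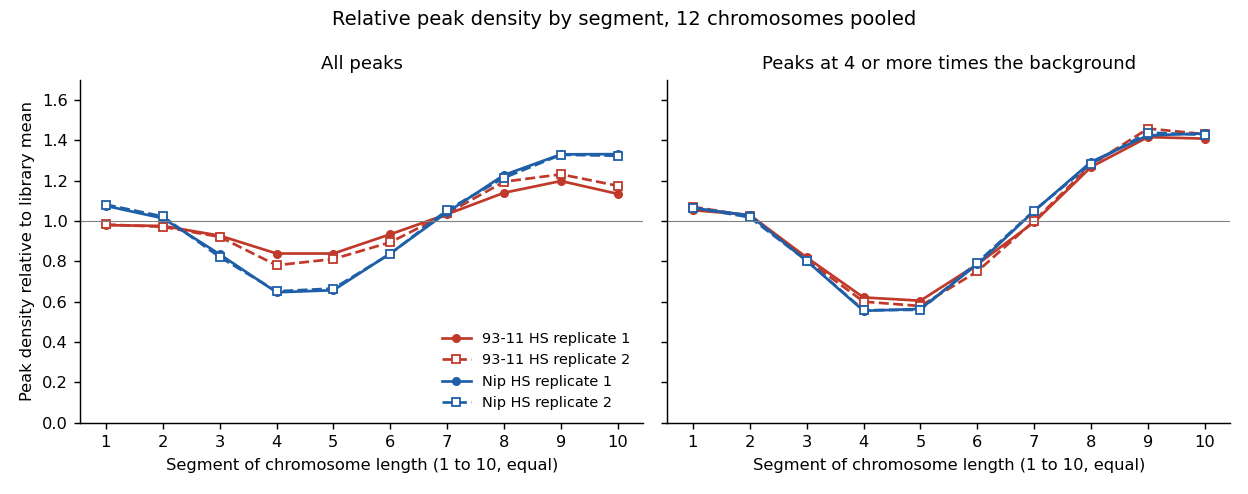
Peak density in each of 10 segments of chromosome length divided by the mean of the library, with the 12 chromosomes pooled, for all peaks (left) and for peaks at 4 or more times the background (right). Lines are single libraries, 93-11 HS in red and Nip HS in blue. With all peaks, segments 4 and 5 stand higher and segments 1, 9 and 10 lower in 93-11 HS. Among the higher peaks the lines lie closer together, with segments 4 and 5 still higher in 93-11 HS.

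The ratio of density in the outer segments (1, 2, 9 and 10) to that in the inner segments (3 to 8) was 1.13 and 1.16 in 93-11 HS, against 1.36 and 1.36 in Nip HS, a log2 ratio of -0.25. The coefficient of variation over the 120 segments was 0.210 and 0.245 in 93-11 HS, against 0.358 and 0.351 in Nip HS, a log2 ratio of -0.64. On 12 of 12 chromosomes the ratio of the highest to the lowest segment was smaller in both 93-11 HS libraries than in both Nip HS libraries. On chromosome 5 it was 1.91 and 2.22 in 93-11 HS, against 3.59 and 3.76 in Nip HS. The order of the segments was nevertheless alike, with Spearman correlations across the 120 segments of 0.888 to 0.913 between cultivars, 0.949 between the 93-11 HS replicates and 0.993 between the Nip HS replicates. These correlations are descriptions, since segments of 1 chromosome share their library and are not independent. The highest segment was the same in both cultivars on 7 of 12 chromosomes, and the lowest on 4.

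Over the 120 single segments, 109 had a lower absolute density in both 93-11 HS libraries than in both Nip HS libraries (90.8%), and 1 had a higher one (0.833%). Relative density did not overlap in 54 segments that were lower (45%) and 53 that were higher (44.2%) in 93-11 HS. Division by the library mean fixes the average over the chromosomes, so differences in both directions arise by construction, though their counts need not be equal. Relative densities were then compared with limma on the log2 scale, with Benjamini-Hochberg adjustment over the 120 segments. At an adjusted p of 0.05, 43 segments (35.8%) were higher and 31 (25.8%) lower in 93-11 HS. Segment 5 was higher on 12 of 12 chromosomes and segment 4 on 10 of 12, while segment 10 was lower on 9 of 12 and higher on none. Against the 35.8% over all segments, the higher calls were therefore frequent near the middle. Of the 120 segments, 74 were called in all, and this count was 45 without Nip HS replicate 1 and 42 without Nip HS replicate 2, when the spread rests on the 93-11 pair alone. Segments of the same number need not hold the same sequence in the 2 assemblies.

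**Figure D4:**
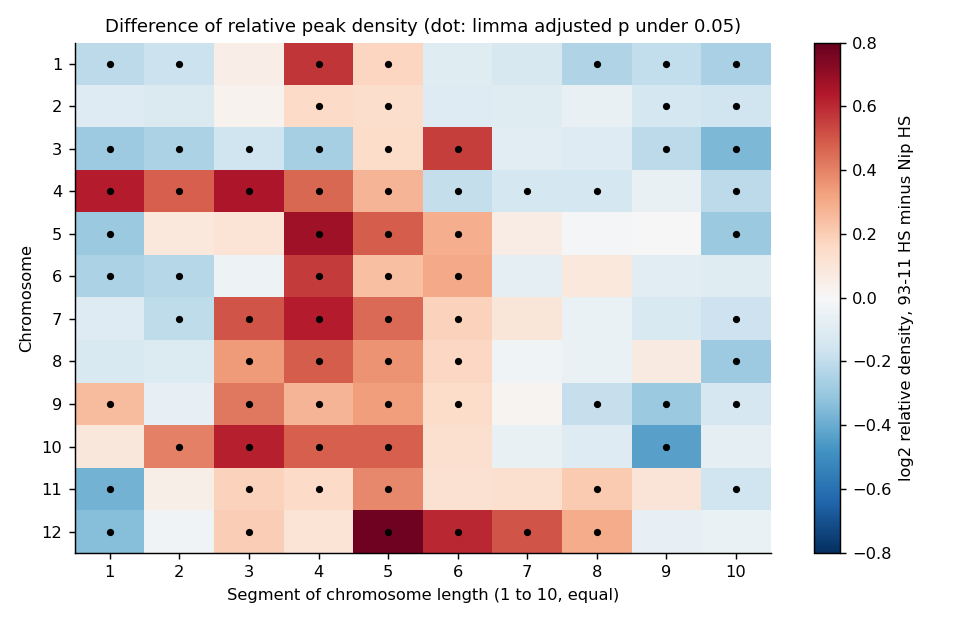
Difference in log2 relative peak density, 93-11 HS minus Nip HS, for each segment (columns) of each of the 12 chromosomes (rows). Red is higher and blue lower in 93-11 HS, and a dot marks an adjusted p under 0.05 (limma, Benjamini-Hochberg over 120 segments). Segments 4 and 5 are mostly red, the left end of chromosome 4 is red over segments 1 to 5, and segment 10 is blue or near 0 on all chromosomes.

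The 5 segments with the largest positive difference were those where Nip HS was sparse, and where 93-11 HS had as many peaks. In chromosome 12 segment 5, 147 and 135 peaks were counted in 93-11 HS, against 139 and 139 in Nip HS. The relative density there was 0.880 and 0.889 in 93-11 HS, against 0.519 and 0.513 in Nip HS. The log2 difference was 0.78 ± 0.0522 (SE, limma adjusted p = 3.4e-08). It was the only segment of 120 with a higher absolute density in both 93-11 HS libraries than in both Nip HS libraries.

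Chromosome 5 segment 4 held 138 and 116 peaks in 93-11 HS, against 127 and 120 in Nip HS. Its log2 difference in relative density was 0.68 (limma adjusted p = 2.9e-07). Chromosome 4, whose short arm is known to be largely heterochromatic in rice, gave 2 of the 5. Its segment 1 held 210 and 195 peaks in 93-11 HS, against 200 and 215 in Nip HS, and its segment 3 held 157 and 150, against 162 and 149. The log2 differences were 0.63 and 0.65 (limma adjusted p = 2.9e-07 and 4.9e-07). Chromosome 7 segment 4, the last of the 5, held 176 and 128 peaks in 93-11 HS, against 149 and 153 in Nip HS, and had a log2 difference of 0.63.

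The 5 segments with the largest negative difference all lay at or next to a chromosome end. Chromosome 10 segment 9 held 178 and 164 peaks in 93-11 HS, against 333 and 347 in Nip HS, and its log2 difference in relative density was -0.44 ± 0.0527 (SE, limma adjusted p = 5.7e-06). Chromosome 11 segment 1 held 181 and 163 peaks in 93-11 HS, against 307 and 340 in Nip HS, with a log2 difference of -0.38. Chromosome 3 segment 10 held 268 and 263 peaks in 93-11 HS, against 523 and 511 in Nip HS, with a log2 difference of -0.36. Chromosome 12 segment 1 and chromosome 5 segment 1 were the other two, with log2 differences of -0.34 and -0.30. These 5 segments held 135 to 268 peaks in 93-11 HS, against 293 to 523 in Nip HS, whereas the 5 segments with a positive difference held 116 to 210 peaks in 93-11 HS, against 120 to 215 in Nip HS. The 10 segments were chosen for their difference between the cultivars, so these ranges are a description.

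Few segments differed between the cultivars in width relative to the library median. The median width was lower in both 93-11 HS libraries than in both Nip HS libraries in 120 of 120 segments (100%) and higher in 0 (0%). After division by the median of the library, limma called 3 segments (2.5%) higher and 0 (0%) lower in 93-11 HS, and 19 segments had an unadjusted p under 0.05. The 3 were chromosome 4 segment 2, chromosome 8 segment 2 and chromosome 12 segment 2, and none of them was called without Nip HS replicate 1 or without Nip HS replicate 2. In chromosome 4 segment 2, the median width was 218 and 221.5 bp in 93-11 HS, against 309 and 302 bp in Nip HS.

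The outer to inner ratio depended on the height of the peaks, and more so in 93-11 HS than in Nip HS. When the peaks of each list were ranked by their value and cut into 10 equal classes, the outer to inner ratio of the weakest class was 0.787 and 0.899 in 93-11 HS, against 0.894 and 0.857 in Nip HS. The ratio thus overlapped in the weakest class. These classes were not of like height, with a median of 2.95 and 3.00 times the background in 93-11 HS, against 2.65 and 2.63 in Nip HS. Among all peaks under 3 times the background, the ratio was 0.763 and 0.926 in 93-11 HS, against 0.973 and 0.942 in Nip HS. In the second class by rank it was 0.900 and 0.793 in 93-11 HS, against 1.23 and 1.25 in Nip HS. In 93-11 HS it stayed below 1 up to the fifth class (0.942 and 0.987), against 1.52 and 1.47 in the fifth class of Nip HS. In the strongest class it was 1.80 and 1.82 in 93-11 HS, against 1.43 and 1.47 in Nip HS. The weaker peaks of 93-11 HS were thus spread slightly towards the inner segments, and its strongest were more concentrated in the outer segments than those of Nip HS.

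**Figure D5:**
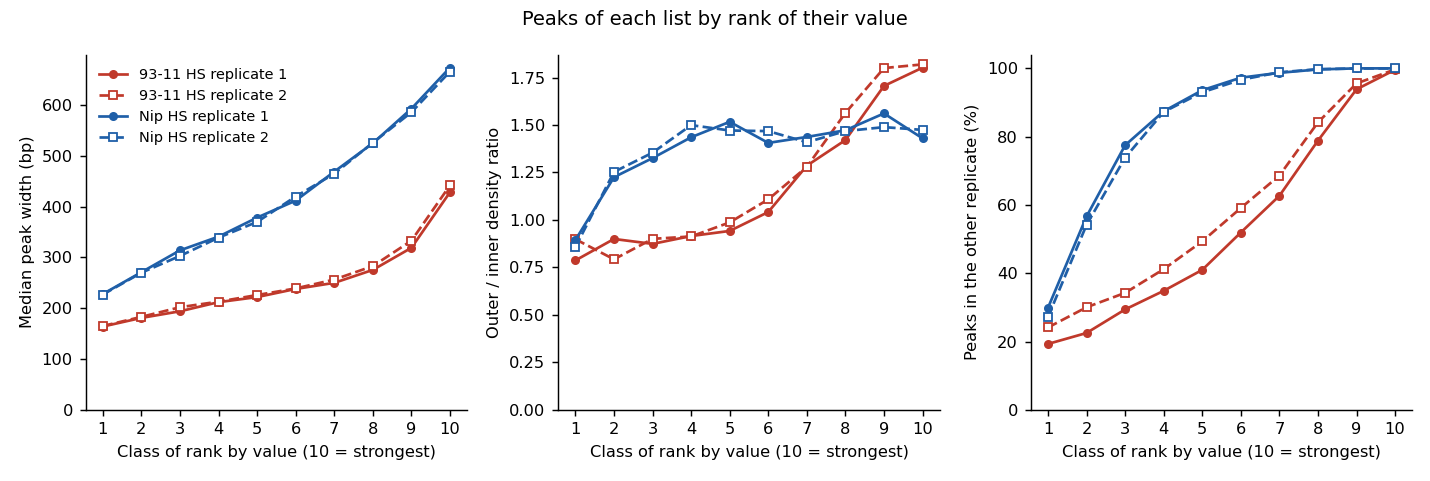
Peaks of each HS list ranked by their value and cut into 10 equal classes (10 = strongest), with the median width, the outer to inner density ratio and the percent of peaks overlapping a peak of the other replicate. Lines are single libraries, 93-11 HS in red and Nip HS in blue. The 93-11 HS ratio stays below 1 through class 5 and passes that of Nip HS in the 2 strongest classes, and its replicate share climbs slowly where that of Nip HS climbs steeply.

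The same low peaks were the ones seldom found in the other replicate. In the fifth class, 41.0% and 49.3% of the 93-11 HS peaks overlapped a peak of the other replicate, against 93.6% and 93.0% of the Nip HS peaks. Classes of like rank were not of like height, with a median of 3.83 and 3.86 times the background here, against 4.84 and 4.82 times. At 3 to 4 times the background the share was 32.9% and 37.5% in 93-11 HS, against 72.8% and 70.2% in Nip HS. At 4 to 6 times it was 69.8% and 73.7%, against 93.3% and 93.1%. In the strongest class the share was 99.6% and 99.7% in 93-11 HS, against 100% in both Nip HS libraries. By position, the share was lowest in segment 5, at 40.9% and 46.9% in 93-11 HS, against 75.3% and 73.3% in Nip HS, and in segment 10 it was 62.5% and 66.2%, against 87.0% and 86.5%. Peaks in the middle of the chromosomes were therefore less often shared between replicates than distal ones in both cultivars.

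With only the peaks at 4 or more times the background, the outer to inner ratio was 1.45 and 1.49 in 93-11 HS, against 1.47 and 1.47 in Nip HS, and the groups overlapped. This overlap pooled peaks of opposite order. At 4 to 6 times the background the ratio was 1.31 and 1.35 in 93-11 HS, against 1.47 and 1.48 in Nip HS, whereas at 6 to 10 times it was 1.81 and 1.85 in 93-11 HS, against 1.45 and 1.46 in Nip HS. The coefficient of variation over segments was 0.436 and 0.461 in 93-11 HS, against 0.455 and 0.457 in Nip HS, and also overlapped. The trough remained shallower in 93-11 HS, with a relative density in segment 4 of 0.621 and 0.600 in 93-11 HS, against 0.555 and 0.558 in Nip HS. Single segments still differed, since limma called 26 with these peaks. Of the 74 segments called with all peaks, 17 were called in the same direction with these peaks, and 56 had the same sign. Of the 10 segments named above, 7 were called with these peaks, among them 4 of the 5 with a positive difference, such as chromosome 5 segment 4 with a log2 difference of 0.72 (limma adjusted p = 0.032). The exceptions were chromosome 12 segment 5 (log2 difference 0.077, limma adjusted p = 0.70), chromosome 3 segment 10 and chromosome 5 segment 1. The difference in number, in contrast, was larger among these peaks, at 30.5 and 28.7 peaks per Mb in 93-11 HS, against 65.6 and 66.4 peaks per Mb in Nip HS, a log2 ratio of -1.16. With the peaks found in both libraries of a group, the density was 34.3 and 34.3 peaks per Mb in 93-11 HS, against 81.8 and 81.8 peaks per Mb in Nip HS. The outer to inner ratio of these peaks was 1.36 and 1.35 in 93-11 HS, against 1.43 and 1.43 in Nip HS. The 2 lists of a group hold the same sites here by construction, so their closeness is no measure of spread. This filter kept 53.4% and 58.6% of the 93-11 HS peaks, against 84.1% and 83.1% of the Nip HS peaks.

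Under Normal conditions the 2 cultivars were closer in density, width and outer to inner ratio, but not in the height of the peaks. Peaks at 4 or more times the background made up 37.8% and 36.2% in 93-11 Normal, against 65.7% and 67.7% in Nip Normal. Under HS they made up 47.4% and 49.1% in 93-11, against 67.5% and 67.3% in Nip. The density was 81.4 and 79.0 peaks per Mb in 93-11 Normal, against 84.2 and 79.2 peaks per Mb in Nip Normal. The median width was 263 and 272 bp in 93-11 Normal, against 346 and 355 bp in Nip Normal, so 93-11 had the narrower peaks in both conditions. The shortest peak was 128 and 130 bp in 93-11 Normal, against 150 and 154 bp in Nip Normal. The outer to inner ratio was 1.18 and 1.22 in 93-11 Normal, against 1.29 and 1.31 in Nip Normal. Position thus differed in the same direction in both conditions. The log2 ratio of 93-11 to Nip under HS minus that under Normal was -0.65 for density, -0.38 for width and -0.13 for the outer to inner ratio. An exact permutation of condition within each cultivar, over 36 assignments, gave p = 0.0556 for each, the smallest it can give, and an adjusted p of 0.0635 over the 8 measures. Of the 74 segments called under HS, 64 had the same sign under Normal, and limma called 55 segments under Normal.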

How the data were processed

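ATAC-seq peak lists of 8 libraries were used, 1 list per library. The methods of the study state Cutadapt for trimming, Bowtie2 for mapping, SAMtools and Picard for filtering, and MACS2 with an adjusted p of 0.05 for narrow peaks. The submitters' processing notes instead name BWA 0.7.10-r789, SAMtools 0.1.19, deepTools 2.0 and MACS2 2.1.1. Genome builds, a shift for Tn5 and the background model are not given in the sources used here. The deposited lists hold start and end positions and a value without header that was read as −log10 p, from its match to Poisson tails at whole pileups. The background rate was the Poisson rate that best matched the 12 most frequent values. It follows depth times fragment length, and the depth itself is unknown. Numbers and widths of peaks past a threshold can vary with depth and background, and their part was not tested.

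Chromosome length was the largest peak end in the 4 lists of a cultivar, 387.8 Mb in 93-11 and 372.9 Mb in Nip. Peaks outside chromosomes 1 to 12 were left out (1.80% and 1.82% in 93-11 HS, 0.750% and 0.754% in Nip HS). Peaks were placed by midpoint. Single values were compared by exact permutation tests, and segments by limma 3.58.1 in R 4.3.3 with a pseudocount of 0.5 peaks. The measures and permutation tests passed a check on made-up lists. Limma was also run on simulated independent segments, with no criterion to pass. Permutation p-values rest on 2 libraries a group. The limma p-values also draw on a spread pooled over all segments, which share their libraries and are not independent. They can therefore be far smaller than the spread between 2 libraries a group would give alone.

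Named regions were the 3 broadest sites, longest empty stretches and fullest windows per cultivar found in both HS libraries, and the 5 segments with the largest called difference in each direction, of which a few of each kind are given. The members, measures and lists were chosen with earlier results of these data known. Alternatives were the 10000 strongest peaks, peaks at 4 or more times the background, peaks of both libraries, a common lowest value, other lengths, windows, distances, pseudocounts and centring, each library left out, and a replicate block. Grouping peaks by rank and by fold, and common limits on width and gap, were chosen after seeing the data.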

Additional observations from a re-analysis of the deposited data

Results flagged for a closer look

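For 7 of the 8 measures every HS library lay on one side of the Normal libraries in 93-11 and on the opposite side in Nip. For the coefficient of variation in 93-11 the nearest libraries almost touched, at 0.2448 under HS and 0.2451 under Normal. The number of peaks at 4 or more times the background overlapped in 93-11, at 11817 and 11145 under HS, against 11945 and 11093 under Normal. In Nip this number was 24475 and 24745 under HS, against 20631 and 19990 under Normal. The log2 ratio of 93-11 to Nip under HS minus that under Normal was -0.65 for peak density, -1.03 for covered share, -0.38 for median width and 0.78 for median gap. It was -0.34 for the share of peaks with a neighbour within 1 kb, -0.13 for the outer to inner ratio and -0.33 for the coefficient of variation over segments. Each gave an exact permutation p of 0.0556 and an adjusted p of 0.0635. The background rate moved the same way, lower under HS in 93-11 (4.41 and 4.66 under HS, 6.11 and 6.67 under Normal) and higher in Nip (6.79 and 6.85 under HS, 5.31 and 5.21 under Normal), and its part was not tested. For empty 100 kb windows the difference was 1.12 (exact permutation p = 0.167), which turned to -0.16 among peaks at 4 or more times the background.

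Peaks on sequences other than chromosomes 1 to 12, which entered no comparison, made up 1.81% of the 93-11 HS peaks on average, above both 93-11 Normal libraries (1.48% and 1.45%).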

How the results depend on the processing

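Density, covered share and width kept their direction in all alternatives run. The gap did too, but its log2 ratio of 0.88 was 0.011 among the 10000 strongest peaks, where the libraries overlapped, and its HS minus Normal difference of 0.78 was 0.068 there. Among the 10000 strongest peaks the log2 ratios of 93-11 to Nip under HS turned to 0.87 for close neighbours, 0.065 for the outer to inner ratio and 0.023 for the coefficient of variation. The HS minus Normal differences turned to 1.02 for close neighbours and -0.26 for empty windows there, and to 0.36 and -0.16 among peaks at 4 or more times the background. Peak density was not compared among 10000 peaks, whose number is fixed. The 74 segments called in relative density were 14 among the 10000 strongest peaks, 26 among peaks at 4 or more times the background (fewer peaks per segment in both), 107 among peaks of both libraries, whose 2 lists hold the same sites by construction, and 42 to 88 with a library left out. The 3 segments called in width were 0 among the 10000 strongest peaks, 0 at 4 or more times the background, 0 in 20 segments per chromosome, 13 with common limits and 120 without division by the library median, where 0 were higher, and 0 to 6 with a library left out. The cause was not tested.

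Replicate numbers of different cultivars share only a number. With them as a replicate block, limma called 68 segments in relative density and 0 in width, and the smallest p of the paired test of single values was 0.5.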
